A study of Homo sapiens with 9 samples.

Results

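The mitochondrial ribosomal protein genes, those whose single annotated symbol starts with MRPL (large subunit) or MRPS (small subunit) followed by a number and at most 1 letter, were described in HEK293 cells transfected to raise or to lower MOF. The rule gave 75 genes among the 19775 genes with 1 annotated symbol on the array, 48 of the large and 27 of the small subunit, each read on its probe set of highest mean signal over the 9 arrays. All 75 passed the filter on dim probe sets. HEK293 is an immortalised human embryonic kidney line, and MOF (gene KAT8) is the acetyltransferase of lysine 16 on histone H4. The 3 groups were cells transfected with siRNA against MOF (Knock Down), cells transfected with a plasmid encoding MOF (Over Expression) and cells that were left untreated (wild type), with 3 arrays each. The series title ties altered MOF and lower H4K16 acetylation to a defective response to DNA damage. Wild type cells are labelled as without treatment, so an effect of transfecting the cells cannot be told apart from one of MOF in the comparisons with wild type. The design text also mentions a dsRNA control, which no array here is labelled as. The labels call the Knock Down line knocked out in 1 field and do not say if each replicate is a culture of its own, so p-values cover the scatter of these 9 samples, and part of that scatter may be technical.

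Mitochondria carry their own ribosome, which makes the few respiratory chain proteins encoded in mitochondrial DNA. Its protein subunits are all encoded in the nucleus, made in the cytosol and imported. Some have a bacterial counterpart and others are found only in mitochondria. The small subunit decodes the mRNA, and the large subunit joins amino acids and holds the exit tunnel close to the inner membrane.

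KAT8 had a signal of 551.6 ± 140 in Knock Down, 4695 ± 88.9 in Over Expression and 3318 ± 448 in wild type cells (mean ± SD, n = 3 each). It fell by 2.61 on the log2 scale in Knock Down against wild type (limma adjusted p = 4.72e-05). Its log2 difference in Over Expression against wild type was 0.51 (limma adjusted p = 0.259), so a rise of KAT8 RNA did not pass the test. A second, dimmer probe set had 148 ± 25.3 in Knock Down, 488.6 ± 147 in Over Expression and 442.6 ± 50.6 in wild type cells (mean ± SD, n = 3 each). On it the Over Expression and wild type arrays overlapped, with a log2 difference of 0.11 (limma adjusted p = 0.91). The arrays had been scaled to a common trimmed mean of 1500.2, which hides a change in total RNA per cell, and in bulk RNA fewer cells expressing a gene and less RNA per cell cannot be told apart. The replicate 1 arrays stood apart in all 3 groups: poly-A control probe sets were 2.23-fold brighter in replicates 2 and 3. All 7 HEK293 markers were above the filter, with summed signals of 97953 to 111886 in Knock Down, 94106 to 112379 in Over Expression and 101658 to 106865 in wild type cells. PAX2 and KRT8 of that list fell in Knock Down against wild type, with log2 differences of -1.07 and -0.57 (limma adjusted p = 0.00513 and 0.0223). Of 7 markers of other cell types on the array, 5 were below the filter (PTPRC, ALB, LYZ, CD3E and COL1A2) and neither COL1A1 nor PECAM1 was called. The summed signal of these 7 was 1995 to 2563 in Knock Down, 2592 to 3430 in Over Expression and 2576 to 3001 in wild type cells, and its part in the results was not tested.

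After MOF knockdown the mitochondrial ribosomal protein genes leaned towards lower signals. Against wild type, 14 of the 75 fell and 2 rose at a limma adjusted p under 0.05. The 14 make up 18.7% of the members, where 12.7% of all 12036 genes tested fell, and the 2 make up 2.67%, where 6.7% of all genes tested rose. The median log2 difference was -0.15 over the members and -0.04 over all genes tested. The members were brighter than many genes tested, with mean log2 signals of 11.43 to 15.32 and a filter at 7.564. With a filter at the 75th percentile 3020 of 13654 probe sets were called in either direction, against 4289 of 27307. In that fit 17 members fell and 2 rose. Shares among equally bright genes were not counted, here or for the shares below. Most single shifts were small: the 14 lay between 1.16-fold and 1.66-fold lower, and the other 59 members did not pass the threshold. Overexpression moved no member past the threshold.

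**Figure D1:**
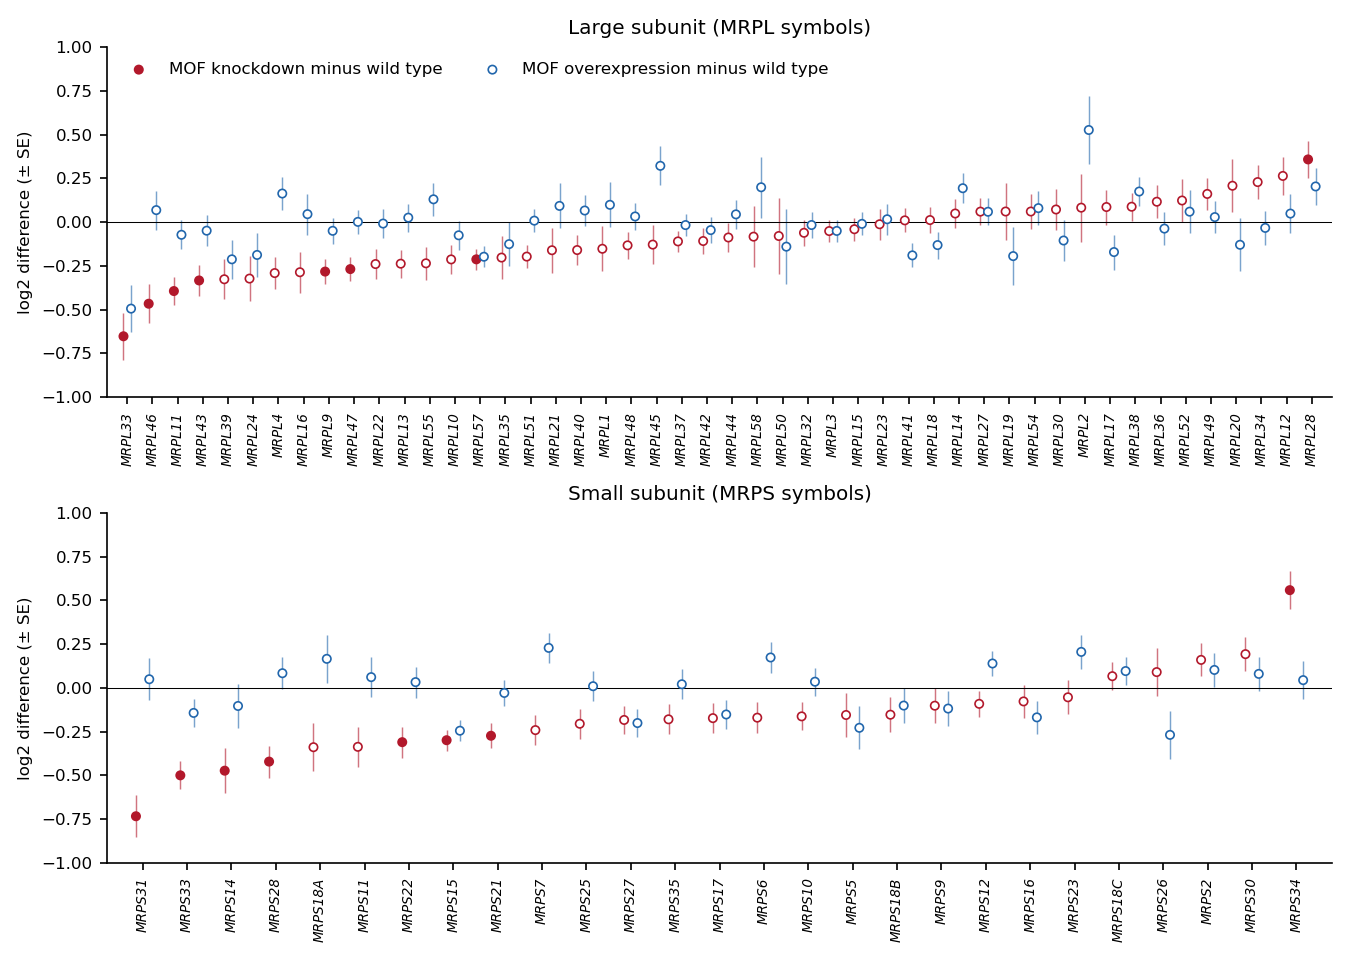
log2 difference of each of the 75 genes from the wild type mean (y axis, ± SE from the fit), large subunit above and small subunit below, ordered by the knockdown difference. Red marks are MOF knockdown and blue marks MOF overexpression, and filled marks have a limma adjusted p under 0.05: 16 red ones, running between -0.73 for MRPS31 and 0.56 for MRPS34, and no blue one.

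The promoters of 5 members picked from the results below are shown first. MRPS31 and MRPL33 had the largest falls after knockdown and MRPS34 the largest rise. MRPS33 fell with no ETS letters in its window, and MRPL46 shares its upstream region with MRPS11. Other members that fell are not shown, among them MRPS15, which has no ETS letters in its window either. The sequences are the 250 bases before the annotated start, 5′ to 3′ on the gene's own strand, from RefSeq on GRCh38.p14. They lie at chr13:40771191-40771440 (minus strand), chr2:27771469-27771718 (plus strand), chr16:1773135-1773384 (minus strand), chr7:141014953-141015202 (minus strand) and chr15:88467389-88467638 (minus strand). Capitals mark CCGGAAG or its reverse complement CTTCCGG, the core bound by ETS factors such as GABP, a known activator of many nuclear genes for mitochondrial proteins.
MRPS31 promoter: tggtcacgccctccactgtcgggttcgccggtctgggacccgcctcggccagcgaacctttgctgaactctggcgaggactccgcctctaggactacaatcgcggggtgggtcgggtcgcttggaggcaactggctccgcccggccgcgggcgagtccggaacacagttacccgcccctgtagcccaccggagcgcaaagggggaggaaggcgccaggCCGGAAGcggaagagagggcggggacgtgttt
MRPL33 promoter: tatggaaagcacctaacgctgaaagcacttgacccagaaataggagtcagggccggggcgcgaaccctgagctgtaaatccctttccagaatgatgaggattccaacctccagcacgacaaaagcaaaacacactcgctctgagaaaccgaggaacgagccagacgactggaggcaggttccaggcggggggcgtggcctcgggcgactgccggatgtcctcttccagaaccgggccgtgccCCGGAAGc
MRPS34 promoter: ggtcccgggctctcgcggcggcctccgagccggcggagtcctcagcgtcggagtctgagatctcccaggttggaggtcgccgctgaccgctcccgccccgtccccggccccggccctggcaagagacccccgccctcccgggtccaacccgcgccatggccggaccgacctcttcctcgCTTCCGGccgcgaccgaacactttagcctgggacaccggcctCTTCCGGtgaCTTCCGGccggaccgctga
MRPS33 promoter: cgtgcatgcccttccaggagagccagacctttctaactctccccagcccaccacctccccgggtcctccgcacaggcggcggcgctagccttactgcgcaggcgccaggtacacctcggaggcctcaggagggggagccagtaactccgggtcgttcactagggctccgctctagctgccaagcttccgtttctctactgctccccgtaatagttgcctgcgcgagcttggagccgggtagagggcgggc
MRPL46 promoter: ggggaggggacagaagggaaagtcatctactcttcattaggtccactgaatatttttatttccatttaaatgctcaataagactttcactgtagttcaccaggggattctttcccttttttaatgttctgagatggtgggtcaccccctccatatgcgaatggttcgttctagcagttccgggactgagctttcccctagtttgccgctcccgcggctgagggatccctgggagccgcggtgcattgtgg

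A promoter was found for 67 of the 75 members. The others, MRPL2, MRPL10, MRPL13, MRPL15, MRPL21, MRPL23, MRPL35 and MRPS28, had no entry in the table used. CCGGAAG was searched on both strands of the 250 bases and was present in 22 of 67 member promoters (32.8%), against 16.3% of the 9483 promoters of protein-coding genes tested and 11.8% of all 15843 protein-coding promoters. It was present in 13 of 41 large subunit promoters (31.7%) and in 9 of 26 small subunit promoters (34.6%). Among the members that fell after knockdown it was present in 6 of 13 promoters, and among those with no call in 15 of 52. In MRPS31 the match lay 32 to 26 bases before the start and in MRPL33 8 to 2 bases before it. MRPS34, which rose, had 3 matches, at 71 to 65, 29 to 23 and 19 to 13 bases before the start. The same letters thus stood before genes that fell and before the gene with the largest rise.

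Other cores were searched in the same way, and the YY1 and ZNF143 letters can share a few bases with an ETS match. AAGATGGC, a YY1 core, was in 5 of 67 member promoters (7.46%) and in 1.81% of those of genes tested. The element of ZNF143 and THAP11 was in 5 (7.46%) against 4.18%. The E-box CACGTG, bound by MYC among others, was in 6 (8.96%) against 9.13%, and the palindromic NRF1 site was in 1 (1.49%) against 2.06%. The median GC content of the window was 60.8% for members and 65.6% for genes tested. A match is a description of the sequence and not evidence of binding, and a missing match says only that these letters are not in this window.

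Many of these genes stand close to another gene read on the opposite strand. Starts within 1000 bases of an opposite-strand start were found for 22 of the 67 members (32.8%), against 1574 of 9483 genes tested (16.6%). Of their 21 tested neighbours, 2 rose (9.52%) and 4 fell (19.0%) in Knock Down against wild type, where 6.7% of all genes tested rose and 12.7% fell. MRPL46 and MRPS11 are each other's neighbour, with 320 bases between their starts.

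Among the small subunit genes, 7 of 27 fell and 1 rose in Knock Down against wild type. MRPS31, which encodes a small subunit protein found only in mitochondria, had signals of 7792.3, 6194.0 and 5700.7 in Knock Down, 12440.4, 10925.4 and 10305.2 in Over Expression and 11641.2, 10415.0 and 10430.4 in wild type cells. All 3 Knock Down arrays lay below all 6 others. MRPS31 was 1.66-fold lower than in wild type, a log2 difference of -0.73 ± 0.12 (SE; limma adjusted p = 0.00298), the largest fall of any member. Leaving out any 1 of the 6 arrays compared kept the call. A second MRPS31 probe set also fell, with a log2 difference of -0.49 (limma adjusted p = 0.0472), and another, dimmer one had a log2 difference of -0.06 (limma adjusted p = 0.904).

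MRPS33, another subunit found only in mitochondria, had signals of 17274.4, 14530.0 and 14391.5 in Knock Down, 20104.5, 19614.6 and 19224.0 in Over Expression and 21872.6, 21410.2 and 21809.9 in wild type cells. The 3 groups did not overlap, with Over Expression in between. Its log2 difference in Knock Down against wild type was -0.50 ± 0.08 (SE; limma adjusted p = 0.00261). MRPS28, a small subunit protein, had 4737.2, 5817.7 and 5252.0 in Knock Down, 7590.8, 7639.0 and 7132.2 in Over Expression and 6867.8, 6998.7 and 7232.3 in wild type cells. Its Knock Down arrays lay below all others, and its log2 difference against wild type was -0.42 ± 0.09 (SE; limma adjusted p = 0.0117).

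MRPS15, the counterpart of bacterial S15, an early binder of small subunit rRNA, was among the brightest members. Its signals were 22930.1, 22990.0 and 22505.9 in Knock Down, 24032.2, 23153.6 and 23871.2 in Over Expression and 27361.6, 28018.8 and 28833.9 in wild type cells. All 6 arrays of transfected cells lay below the 3 wild type arrays. The fall in Knock Down was only 1.23-fold, a log2 difference of -0.30 ± 0.06 (SE; limma adjusted p = 0.00784), and it held without any 1 array, as the calls of MRPS33 and MRPS28 did. Its 3 other probe sets had log2 differences of -0.23, -0.27 and -0.05 and none was called, and from the mean of its probe sets MRPS15 was not called.

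MRPS14, the counterpart of bacterial S14, had 14289.8, 12038.6 and 9414.1 in Knock Down, 15538.9, 14699.5 and 15292.0 in Over Expression and 16561.3, 17297.1 and 15123.3 in wild type cells. Its Knock Down arrays were all lowest but spread widely, and the log2 difference against wild type was -0.47 ± 0.13 (SE; limma adjusted p = 0.0291). Its second probe set fell too, by 0.44 on the log2 scale (limma adjusted p = 0.0134). MRPS22, a subunit found only in mitochondria in which inherited variants cause mitochondrial disease, had a log2 difference of -0.31 ± 0.09 (SE; limma adjusted p = 0.0361). All 3 of its other probe sets fell as well, by 0.29, 0.57 and 0.45 on the log2 scale, and all 4 are of a kind whose probes can bind related transcripts. MRPS21, the counterpart of bacterial S21, had a log2 difference of -0.27 ± 0.07 (SE; limma adjusted p = 0.0268).

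MRPS34 went the other way. This subunit, found only in mitochondria, had signals of 11192.6, 9394.6 and 8870.3 in Knock Down, 6700.2, 6459.3 and 7401.0 in Over Expression and 6864.1, 7049.1 and 6040.9 in wild type cells. The 3 Knock Down arrays lay above all 6 others. MRPS34 rose 1.47-fold, a log2 difference of 0.56 ± 0.11 (SE; limma adjusted p = 0.00649), and the call held without any 1 array. Its 5′ end overlaps that of EME2, a DNA repair endonuclease subunit read from the opposite strand with a start 324 bases away. EME2 rose further, by a log2 difference of 1.43 ± 0.11 (SE; limma adjusted p = 0.000107), and its log2 difference in Over Expression against wild type was 0.40 (limma adjusted p = 0.179).

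Among the large subunit genes, 7 of 48 fell and 1 rose. MRPL33, the counterpart of bacterial L33, had 11344.5, 15224.9 and 15111.7 in Knock Down, 14619.4, 15968.1 and 15526.3 in Over Expression and 18235.3, 22142.0 and 25092.0 in wild type cells. Both transfected groups lay below every wild type array, and they overlapped each other. The log2 difference in Knock Down against wild type was -0.65 ± 0.13 (SE; limma adjusted p = 0.00867), kept without any 1 array. MRPL11, at the base of the stalk that recruits translation factors, had 5238.8, 5403.6 and 5357.7 in Knock Down, 6407.7, 6791.8 and 6797.6 in Over Expression and 6706.3, 7549.2 and 6796.3 in wild type cells. Its Knock Down arrays lay within a narrow band below all others. The log2 difference against wild type was -0.39 ± 0.08 (SE; limma adjusted p = 0.00948), and without wild type replicate 2 the limma adjusted p was 0.05 after rounding, no longer under the threshold.

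MRPL46, of the central protuberance, had 4310.0, 3646.1 and 3836.5 in Knock Down, 6314.5, 4917.4 and 5904.7 in Over Expression and 5729.4, 5350.3 and 5188.0 in wild type cells. Its Knock Down arrays were the 3 lowest. The log2 difference against wild type was -0.47 ± 0.11 (SE; limma adjusted p = 0.0179). MRPS11, the counterpart of bacterial S11 across the shared upstream region, had 6622.5, 5145.3 and 5408.1 in Knock Down, 8075.3, 6857.6 and 7616.0 in Over Expression and 7682.7, 7413.3 and 6520.9 in wild type cells. One Knock Down array overlapped wild type, and the log2 difference of -0.34 ± 0.11 (SE) did not pass the threshold (limma adjusted p = 0.069, and 0.0076 with the replicate number as a block). Of the 4 called members with a tested opposite-strand neighbour, only MRPS34 had a neighbour called in the same direction, and none had a neighbour called in the opposite one.

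The other large subunit falls were smaller. MRPL43, found only in mitochondria, had a log2 difference of -0.33 ± 0.09 (SE; limma adjusted p = 0.0274). MRPL9 and MRPL47, the counterparts of bacterial L9 and L29, had -0.28 ± 0.07 and -0.27 ± 0.07 (SE; limma adjusted p = 0.0242 and 0.0211), and a second MRPL9 probe set fell by 0.40 on the log2 scale (limma adjusted p = 0.0151). MRPL57 is found only in mitochondria and had 22280.1, 22079.8 and 21730.4 in Knock Down, 22581.2, 22325.7 and 21872.1 in Over Expression and 25079.8, 25276.8 and 26250.6 in wild type cells. As with MRPS15, all 6 transfected arrays lay below wild type, with a log2 difference in Knock Down of -0.21 ± 0.06 (SE; limma adjusted p = 0.0348). Its 3 other probe sets, at -0.12, 0.01 and 0.21, were not called. MRPL28, the counterpart of bacterial L28, rose: it had 5463.5, 6141.1 and 6581.3 in Knock Down, 5161.4, 5838.0 and 5315.8 in Over Expression and 5048.4, 4232.5 and 4909.1 in wild type cells, a log2 difference of 0.36 ± 0.11 (SE; limma adjusted p = 0.0413). Here both transfected groups lay above every wild type array. The log2 difference in Knock Down against Over Expression was 0.15 (limma adjusted p = 0.365). A call in Knock Down against wild type favours genes whose wild type arrays lie apart from the rest. That Over Expression lay on the same side in MRPL33, MRPS33, MRPS15, MRPL57 and MRPL28 is thus partly built in. The main fit called none of these in Over Expression against wild type.

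**Figure D2:**
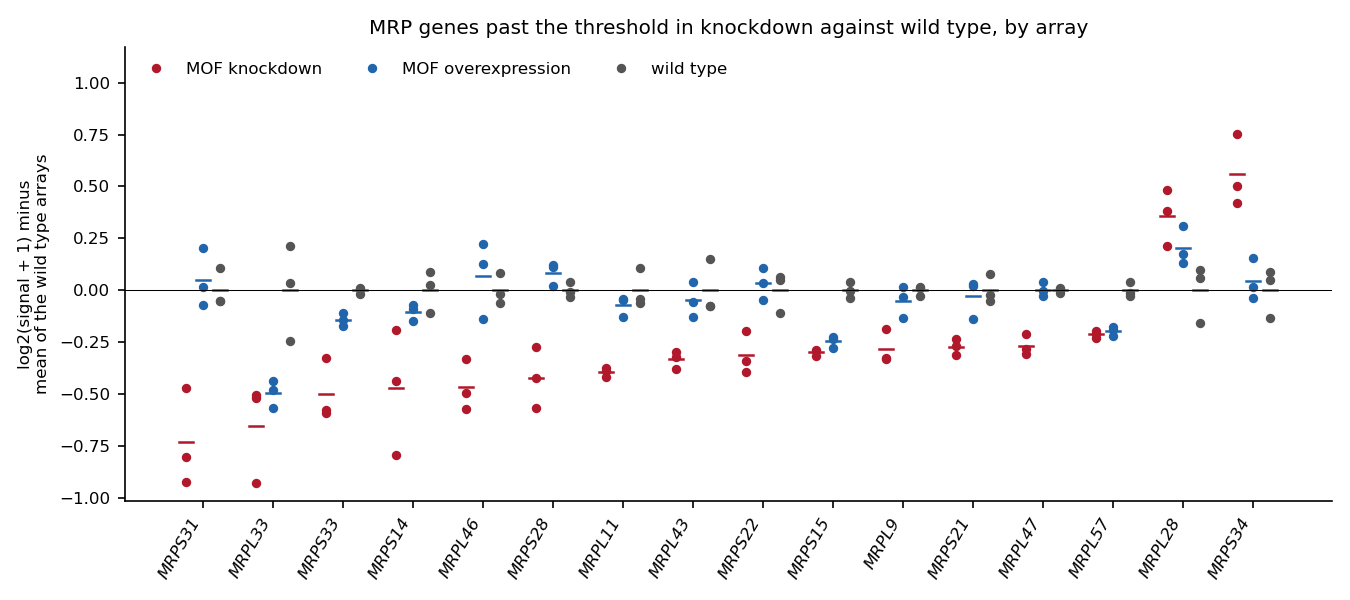
log2(signal + 1) of each array minus the wild type mean (y axis) for the 16 members called in knockdown against wild type, with dots for arrays and short lines for group means. In all 16 the 3 knockdown arrays (red) lie on one side of the 3 wild type arrays (grey). The overexpression arrays (blue) lie below wild type too in MRPL33, MRPS33, MRPS15 and MRPL57, and above it in MRPL28. The 16 were picked by a call against the same wild type arrays. Over all 75 members 9.33% had every overexpression array below wild type and 10.7% above, against 9.26% and 9.85% of all genes tested.

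Single arrays mattered to the number of calls. The count of members that fell was 13, 6 and 6 without knockdown replicates 1, 2 and 3, and 9, 5 and 11 without wild type replicates 1, 2 and 3. In the same order, calls in either direction over all 27307 probe sets numbered 3255, 2419 and 2273, and 3653, 2213 and 2758. With all arrays they numbered 4289. The share of all genes tested that fell in these fits was not counted. MRPS31, MRPL33, MRPS33, MRPS28, MRPS15 and the rise of MRPS34 kept their calls in all 6 of these fits. The calls of MRPS14, MRPL46, MRPL43, MRPS22, MRPL9, MRPS21, MRPL47, MRPL57 and MRPL28 were lost in each of 3 fits, without knockdown replicate 2, knockdown replicate 3 and wild type replicate 2. Wild type replicate 1 also decided MRPS14, MRPL43, MRPL9, MRPS21 and MRPL57, wild type replicate 3 MRPS22, MRPL9, MRPL47, MRPL57 and MRPL28, and knockdown replicate 1 MRPL43, MRPS21 and MRPL57.

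The calls above came from a fit that left the replicate number out, and no label gives same-numbered arrays a shared origin. With the replicate number as a block, an alternative fit that pairs the arrays, 27 members fell (36.0%, against 20.4% of all genes tested). In that fit 4 rose (5.33% against 12.9%). All 14 falls and both rises were among them. From replicates 2 and 3 alone 16 members fell (21.3% against 14.8% of all genes tested) and 4 rose (9.1% of all genes tested rose), and 12 of the 14 falls were called, all but MRPL43 and MRPS21. In all 16 called members the Knock Down and wild type arrays did not overlap. The sign in each of replicates 1, 2 and 3 alone was fixed by that and adds no support. Over the members, 42.7% had all 3 Knock Down arrays below the 3 wild type arrays, against 23.8% of all genes tested. Of 15 other tested probe sets of the called members, 13 had the same sign, 6 were called the same way and none the opposite way.

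The small and large subunits were set side by side after knockdown, with no test of the difference. The median log2 difference from wild type was -0.17 over the 27 small subunit genes and -0.10 over the 48 large subunit genes. Of the small subunit genes 25.9% fell and 81.5% had a negative difference, against 14.6% and 64.6% of the large subunit genes. Over all genes tested 12.7% fell and 55.3% had a negative difference. With the replicate block the shares were close: 10 of 27 small subunit genes fell (37.0%) and 17 of 48 large subunit genes (35.4%). Of all genes tested 20.4% fell with the block. By array, the small subunit median relative to the wild type mean was -0.14, -0.20 and -0.21 in Knock Down, 0.02, 0.02 and -0.02 in Over Expression and 0.01, 0.02 and -0.02 in wild type cells. The large subunit median was -0.09, -0.07 and -0.13 in Knock Down, 0.00, -0.01 and -0.02 in Over Expression and 0.04, 0.01 and -0.03 in wild type cells. In every Knock Down array the small subunit lay lowest, the large subunit next and all genes tested highest, at -0.04, -0.03 and -0.05. With MRPS30 and MRPS18A moved to the large subunit, where structures of the ribosome place them, 7 of 25 small subunit genes (28.0%) and 7 of 50 large subunit genes fell.

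**Figure D3:**
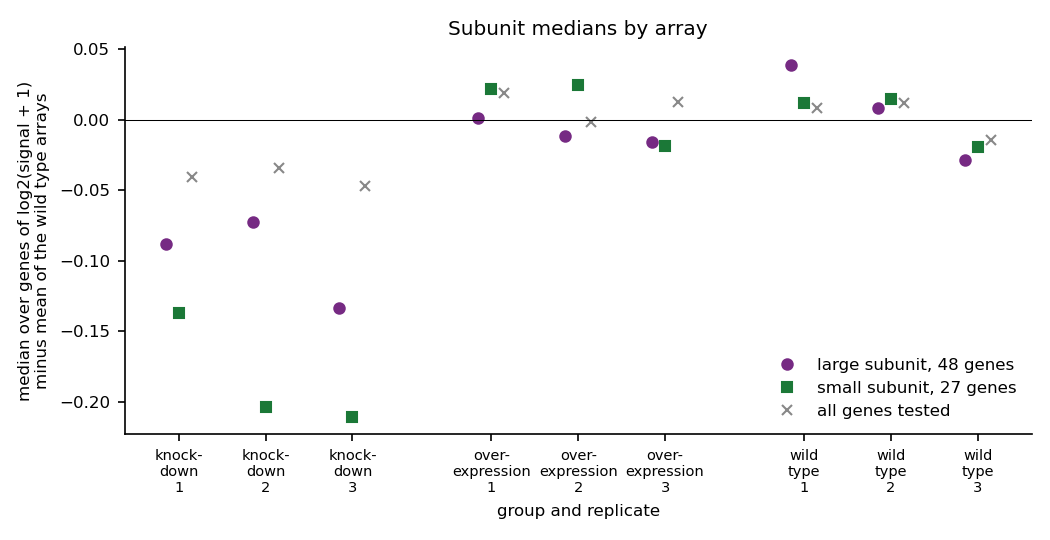
Median over genes of log2(signal + 1) minus the wild type mean (y axis) in each of the 9 arrays, for the large subunit, the small subunit and all genes tested. The small subunit medians lie between -0.14 and -0.21 in the 3 knockdown arrays and between -0.02 and 0.02 in the other 6.

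Against overexpressing cells, which were transfected too but with a plasmid, 15 of the 75 members were lower in Knock Down and 1 was higher. These are 20.0% and 1.33% of the members, where 12.1% of all genes tested fell and 6.22% rose. This comparison shares the Knock Down arrays with the one above. The lower members were 9 of 27 small subunit genes (33.3%) and 6 of 48 large subunit genes (12.5%). The median log2 difference was -0.20 over the small subunit, -0.10 over the large subunit and -0.05 over all genes tested. Without _x_at and _s_at probe sets the order of the subunits turned, with -0.13 over 16 small and -0.14 over 24 large subunit genes, and from the mean of a gene's probe sets the medians were -0.13 and -0.11. The share of negative differences was 70.4% of small and 70.8% of large subunit genes, against 56.5% of all genes tested.

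MRPS31 was 1.72-fold lower than in Over Expression, at -0.78 ± 0.12 (SE; limma adjusted p = 0.00226), MRPL46 1.45-fold lower at -0.53 ± 0.11 (SE; limma adjusted p = 0.0099), and MRPS28 1.42-fold lower at -0.50 ± 0.09 (SE; limma adjusted p = 0.0051). All 3 calls held without any 1 array, as did that of MRPS34, which was 1.43-fold higher at 0.51 ± 0.11 (SE; limma adjusted p = 0.00984). MRPS11 passed here, at -0.40 ± 0.11 (SE; limma adjusted p = 0.0401), so both genes of that divergent pair were lower. MRPS33 at -0.36 ± 0.08 (SE; limma adjusted p = 0.0136) and MRPS22 at -0.34 ± 0.09 (SE; limma adjusted p = 0.0251) were lower as well, and so were MRPL11, MRPL47 and MRPS21. MRPL33, MRPS15 and MRPL57, in which both transfected groups lay below wild type, had log2 differences of -0.16, -0.05 and -0.01 and were not called.

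Some members were called here but not against wild type, a choice that favours genes with Over Expression signals above wild type. None of them was called in Over Expression against wild type. MRPS7, the counterpart of bacterial S7, which binds rRNA in the head of the small subunit, had 8042.3, 7530.5 and 7214.3 in Knock Down, 9945.2, 10712.2 and 10890.7 in Over Expression and 9598.3, 9183.2 and 8189.2 in wild type cells. The Knock Down arrays lay lowest and the Over Expression arrays highest, with no overlap of the 3 groups. The log2 difference was -0.47 ± 0.09 against Over Expression (SE; limma adjusted p = 0.00579) and -0.24 against wild type (limma adjusted p = 0.0845, and 0.029 with the replicate block). MRPL4, the counterpart of bacterial L4 that lines the exit tunnel, had 5880.6, 5223.4 and 5254.7 in Knock Down, 7840.2, 7312.5 and 7241.3 in Over Expression and 7111.9, 6855.6 and 6065.8 in wild type cells. Its order was the same, with a log2 difference of -0.45 ± 0.09 against Over Expression (SE; limma adjusted p = 0.00868). Against wild type it was -0.29 (limma adjusted p = 0.0543, and 0.00683 with the replicate block). The MRPS7 and MRPL4 calls held without any 1 array, and neither of the other MRPL4 probe sets, at -0.29 and -0.26, was called.

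MRPS18A, a protein of the large subunit despite its symbol, had 2808.9, 3223.1 and 3123.0 in Knock Down, 3664.3, 4898.2 and 4500.9 in Over Expression and 3343.9, 4498.8 and 3805.3 in wild type cells. Its Knock Down arrays lay below all others while the other groups overlapped. The log2 difference against Over Expression was -0.50 ± 0.14 (SE; limma adjusted p = 0.0322), and its second, dimmer probe set was lower in both comparisons, by -0.95 against Over Expression (limma adjusted p = 0.00153) and -0.64 against wild type (limma adjusted p = 0.0101). MRPL45, which ties the large subunit to the inner membrane, had 2589.3, 2624.7 and 2165.5 in Knock Down, 3179.9, 3686.2 and 3200.8 in Over Expression and 2778.2, 2702.7 and 2561.3 in wild type cells. Only its Over Expression arrays stood clear of the rest. Its log2 difference was -0.45 ± 0.11 in Knock Down against Over Expression (SE; limma adjusted p = 0.0218). MRPL55 and MRPS6 were lower by -0.37 and -0.34 (limma adjusted p = 0.0242 and 0.0251).

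**Figure D4:**
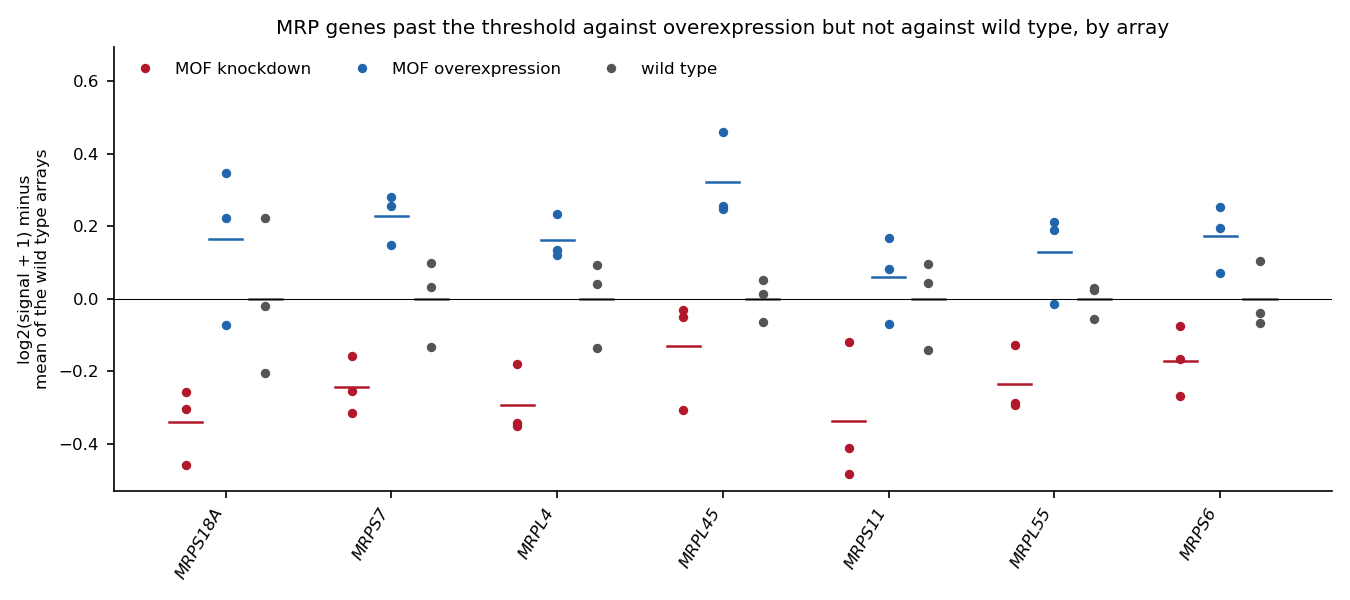
log2(signal + 1) of each array minus the wild type mean (y axis) for the 7 members called in knockdown against overexpression but not against wild type. In all 7 the 3 knockdown arrays (red) lie below the 3 overexpression arrays (blue), by a mean difference between -0.50 for MRPS18A and -0.34 for MRPS6.

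The count of lower members was 13, 6 and 7 without knockdown replicates 1, 2 and 3, and 12, 9 and 7 without overexpression replicates 1, 2 and 3. In the same order, calls in either direction over all 27307 probe sets numbered 3146, 2246 and 2154, and 3289, 2934 and 2040. With all arrays they numbered 3963. The share of all genes tested that was lower in these fits was not counted. The calls of MRPS18A, MRPL45, MRPS11, MRPS6, MRPS22, MRPL11 and MRPL47 were each lost without overexpression replicate 3 and without knockdown replicate 3. Knockdown replicate 2 decided MRPS33, MRPS18A, MRPS11, MRPL55, MRPS6, MRPS22, MRPL11, MRPL47 and MRPS21, knockdown replicate 3 also MRPS33 and MRPS21, and overexpression replicate 3 also MRPL55. Overexpression replicate 2 decided MRPS18A, MRPL45, MRPS6, MRPS22, MRPL11, MRPL47 and MRPS21, overexpression replicate 1 MRPS11, MRPL55 and MRPS21, and knockdown replicate 1 MRPS18A, MRPL55, MRPL11 and MRPS21. With the replicate number as a block 27 members were lower (36.0%, against 19.8% of all genes tested) and 8 were higher (10.7% against 12.9%).

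In Over Expression against wild type no member was called, where limma called 0.457% of all genes tested higher and 0.174% lower. At an unadjusted p under 0.05, 4 members were higher (5.33%) and 5 lower (6.67%), where 7.39% of all genes tested were higher and 6.56% lower. The median log2 difference was 0.01 over the members, 0.03 over the small subunit, -0.00 over the large subunit and 0.00 over all genes tested. MRPL2, part of the peptidyl transferase region and the dimmest member, had the largest positive difference, 0.53 ± 0.19 (SE; limma adjusted p = 0.304). MRPL33 had the largest negative one, -0.49 ± 0.13 (SE; limma adjusted p = 0.163). MRPS15 and MRPL57, at -0.24 ± 0.06 and -0.20 ± 0.06 (SE; limma adjusted p = 0.122 and 0.221), also had every Over Expression array below wild type. So had 9.33% of the members and 9.26% of all genes tested. With a separate term for the replicate 1 arrays MRPL33 and MRPS15 were called lower (2.6% of all genes tested were), and from replicates 2 and 3 alone MRPL33 was (0.407%).

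As a family these genes were well measured. Their mean signal over the 9 arrays lay between 2825 and 40820, all far above the filter at a signal of 188.3, although brightness does not rank transcripts between probe sets. MRPL3, MRPL20, MRPS15 and MRPL57 were brightest, and MRPL2, MRPL45, MRPS18A and MRPL58, a ribosome rescue factor that is also part of the large subunit, were dimmest. The median coefficient of variation between the 3 arrays of a group was 6.62% in Knock Down, 6.4% in Over Expression and 6.19% in wild type cells. Standard errors of the log2 differences lay between 0.06 and 0.21. Of the 75 probe sets, 42 end in _s_at and 4 in _x_at, kinds whose probes can match several transcripts.

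Genes of neighbouring steps in mitochondrial protein synthesis were counted in Knock Down against wild type, where 12.7% of all genes tested fell and 6.7% rose. Lists were not tested against each other. Of 13 mitochondrial translation factors 6 fell (46.2%) and none rose, with a median log2 difference of -0.28. GFM1, the translocation factor, had 5130.2, 5684.4 and 5262.8 in Knock Down, 6766.7, 8406.0 and 7547.7 in Over Expression and 7481.4, 8452.6 and 8247.5 in wild type cells. Its Knock Down arrays were the 3 lowest, with a log2 difference of -0.59 ± 0.10 (SE; limma adjusted p = 0.00338). TACO1, which promotes translation of a cytochrome oxidase subunit, had -0.55 ± 0.10 (SE; limma adjusted p = 0.00485), HEMK1, which methylates release factors, -0.60 ± 0.11 (SE; limma adjusted p = 0.0059), and MTRF1, of the release factor family, -0.77 ± 0.15 (SE; limma adjusted p = 0.00784).

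Of 18 mitochondrial aminoacyl-tRNA synthetases and related enzymes 5 fell (27.8%, against 12.7% of all genes tested) and 1 rose (5.56%, against 6.7%), with a median of -0.12. FARS2, which charges the phenylalanine tRNA, had 1863.5, 1929.9 and 2079.5 in Knock Down, 3384.2, 2821.0 and 2968.6 in Over Expression and 3639.6, 3424.3 and 3383.2 in wild type cells. It was the clearest of the list at -0.83 ± 0.10 (SE; limma adjusted p = 0.000707), with LARS2, for leucine, at -0.45 ± 0.08 (SE; limma adjusted p = 0.0051). Of 23 genes for ribosome assembly and rRNA modification 2 fell (8.7%) and none rose, with a median of -0.03. TRMT61B, an RNA methyltransferase, fell by 0.65 on the log2 scale (limma adjusted p = 0.00173). All of these named calls held without any 1 array.

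Of 18 genes for mitochondrial DNA transcription and RNA stability 2 fell (11.1%) and 1 rose (5.56%), near the 12.7% and 6.7% of all genes tested, with a median of -0.14. Of CHCHD1, DAP3, GADD45GIP1 and PTCD3, mitoribosomal proteins without an MRP symbol, and OXA1L, the membrane insertase that binds the ribosome, none was called, and the median over the 5 was -0.04. Of 52 cytosolic ribosomal protein genes 5 fell (9.62%) and none rose, with a median of -0.13 in Knock Down and -0.09 in Over Expression against wild type. Against wild type 45 of the 52 had a negative difference in Knock Down (86.5%, against 55.3% of all genes tested). In Over Expression 49 of the 52 had one (94.2%, against 49.9%). With the replicate block 7 fell in Knock Down against wild type (13.5%, against 20.4% of all genes tested). From replicates 2 and 3 alone, an alternative chosen after seeing the data, 22 fell (42.3%, against 14.8% of all genes tested). In Over Expression against wild type limma called none in any of these lists, and of all genes tested it called 0.457% higher and 0.174% lower. In Knock Down against Over Expression 4 of 13 translation factors were lower (30.8%) and no cytosolic ribosomal protein gene was called. In that comparison 12.1% of all genes tested were lower and 6.22% higher.

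Of 10 nuclear regulators of mitochondrial genes 1 fell and 1 rose (10.0% each, against 12.7% and 6.7% of all genes tested), with a median log2 difference of 0.16. With the replicate block 4 of the 10 were higher and 1 lower (12.9% of all genes tested were higher and 20.4% lower). In Knock Down against Over Expression 9 of the 10 differences were positive, against 5232 of all 12036 genes tested. MYC had 10359.1, 9501.9 and 9676.4 in Knock Down, 14617.7, 11877.3 and 11991.6 in Over Expression and 17103.0, 15242.8 and 15048.5 in wild type cells. The 3 groups did not overlap, and the log2 difference in Knock Down against wild type was -0.68 ± 0.10 (SE; limma adjusted p = 0.00143), kept without any 1 array. GABPB1, a subunit of GABP, rose by a log2 difference of 0.37 ± 0.09 (SE; limma adjusted p = 0.0213), a call kept only without wild type replicate 1. Its DNA-binding partner GABPA had -0.03 (limma adjusted p = 0.968), and NRF1 and YY1 had 0.22 and 0.22 (limma adjusted p = 0.184 and 0.165).

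**Figure D5:**
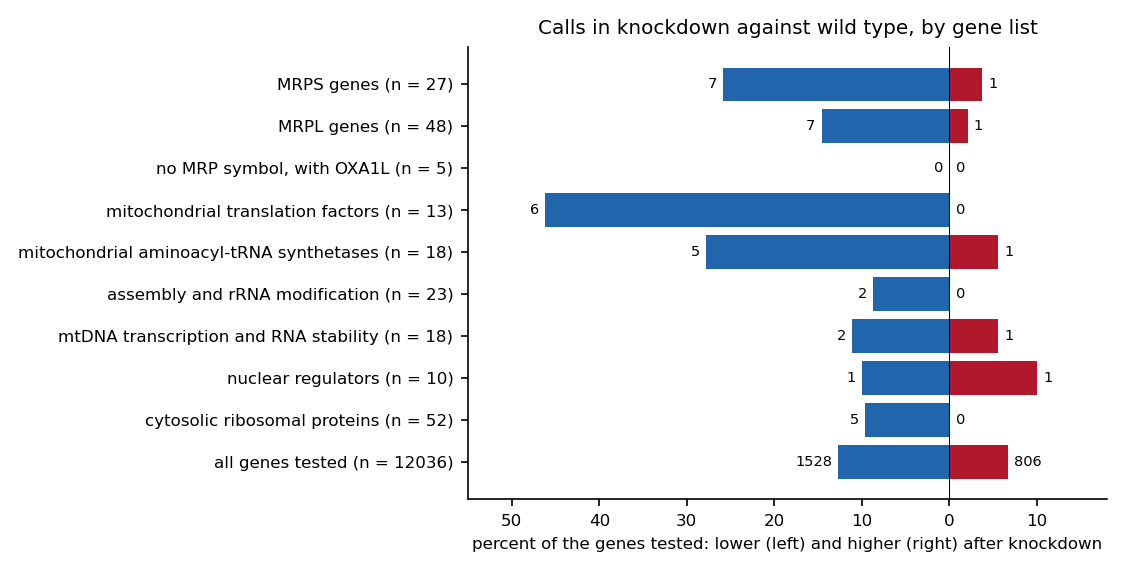
Percent of the genes tested in each list that were lower (left, blue) or higher (right, red) in knockdown against wild type, with the number of genes at each bar. The third row holds 4 mitoribosomal proteins without an MRP symbol and OXA1L. Of the MRPS genes 25.9% were lower, of the MRPL genes 14.6%, of the mitochondrial translation factors 46.2% and of all genes tested 12.7%.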

How the data were processed

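Total RNA of 9 HEK293 samples was hybridised to 9 arrays, and groups and replicate numbers were read off the sample titles. The deposited values are 1 linear intensity per probe set, which the authors computed with MAS5 (per the submitters' processing notes), in a version not given in the sources used here. The equal trimmed mean of all 9 columns shows a global scaling. Number of arrays limits the precision. The design text calls wild type cells untreated and also names samples treated with dsRNA as control. None of the 9 arrays is labelled so, and which control the authors set the groups against cannot be told from the labels.

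The intensities were taken to log2(signal + 1). Without the 62 control probe sets, the 27307 probe sets whose mean reached the median of all (a signal of 188.3) were compared in R 4.3.3 with limma 3.58.1 (lmFit, eBayes with a trend, two-sided) over all 9 arrays and 3 groups. P-values were adjusted by Benjamini-Hochberg over all probe sets tested, at 0.05. Differences are on the log2(signal + 1) scale. The script was tested on simulated data. Probe sets were named from the platform annotation, 41097 with 1 symbol, 1801 with several and 11777 with none. Those with several were left unnamed. All 75 members matched RefSeq by Entrez ID.

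The members and gene lists were chosen with earlier results of these data known. Members were named if among the 12 largest rises or falls past the threshold in a comparison, or the 4 brightest or 4 dimmest. In other lists the genes named were up to 4 of smallest p. MRPL47, the opposite-strand neighbours, the remaining regulators and the genes listed for single arrays were named after their values were seen. Promoters came from a RefSeq table of GRCh38.p14, searched over 250 bases. Deviations of same-numbered arrays from their group means correlated at 0.362, 0.144 and 0.137 in Knock Down and wild type. The values were 0.352, 0.237 and 0.106 in Knock Down and Over Expression. In Over Expression and wild type they were 0.447, 0.16 and 0.083. Replicate 1 had the highest value each time. The main fit left the replicate numbers out, so its calls use no pairing in any comparison. No label states a pairing, and the replicate block was run as an alternative in every comparison. Alternatives were pseudocount 16, no filter or a filter at the 75th percentile, quantile normalization, no trend, a term for replicate 1 arrays, the replicate block, the 2 groups alone, the mean of a gene's probe sets, no _x_at or _s_at probe sets, structure-based subunits and leaving out each array. Using replicates 2 and 3 only was added after seeing the data. Figures were drawn with matplotlib 3.10.9.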

Additional observations from a re-analysis of the deposited data

How the results depend on the processing

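With 3 arrays a group, counts of calls moved between settings. In Knock Down against wild type, where 14 members fell and 2 rose, the counts were 7 and 1 without the trend, 27 and 5 with a term for the replicate 1 arrays, 27 and 4 with the replicate block, and 4 and 1 without _x_at and _s_at probe sets, which leave 40 members. The number of rises was 1 with no filter on dim probe sets, 1 with only the 2 groups compared, and 4 from replicates 2 and 3 alone, an alternative chosen after seeing the data. Leaving out 1 array gave 5 to 13 falls and 1 to 2 rises. Probe sets called numbered 4289, against 7706 with the replicate 1 term, 7637 with the replicate block, 2740 without _x_at and _s_at sets, and 2213 to 3653 without 1 array. In Over Expression against wild type, members called lower numbered 2 with the replicate 1 term, 2 with the replicate block and 1 from replicates 2 and 3, where the main count was 0. The main fit left the replicate numbers out in every comparison, and no label states a pairing. Probe sets called numbered 130, against 70 without the trend, 1109 with the replicate 1 term, 1022 with the replicate block, 27 with only the 2 groups compared, 55 without _x_at and _s_at sets, 220 from replicates 2 and 3, and 25 to 97 without 1 array. In Knock Down against Over Expression, where 15 members were lower and 1 higher, the counts were 29 and 8 with the replicate 1 term and 27 and 8 with the replicate block. Lower members numbered 6 without the trend, 6 without _x_at and _s_at sets and 6 to 13 without 1 array, and higher ones 4 from replicates 2 and 3. Probe sets called numbered 3963, against 7425 with the replicate 1 term, 7334 with the replicate block, 2474 without _x_at and _s_at sets and 2040 to 3289 without 1 array. The small subunit median moved between -0.21 and -0.16 without 1 array in Knock Down against wild type, between -0.0091 and 0.0426 in Over Expression against wild type, and between -0.22 and -0.15 in Knock Down against Over Expression, where it was -0.13 from the mean of all tested probe sets of a gene and -0.13 without _x_at and _s_at sets. The large subunit median there was -0.14 without _x_at and _s_at sets. That setting turned the order of the subunits there. From the mean of all tested probe sets of a gene the calls of MRPS15 and MRPL57 in Knock Down against wild type and of MRPS11 in Knock Down against Over Expression ended. Using no filter ended those of MRPL57, MRPL9, MRPS21, MRPS22 and MRPL28 against wild type and of MRPS11 and MRPS21 against Over Expression. Fitting without the trend ended those of MRPL43, MRPL47, MRPL57, MRPL9, MRPS14, MRPS21, MRPS22 and MRPL28 against wild type and of MRPL11, MRPL47, MRPL55, MRPS11, MRPS18A, MRPS21, MRPS22, MRPS33 and MRPS6 against Over Expression. Fitting only the 2 groups ended those of MRPL57, MRPS14, MRPS22 and MRPL28 against wild type and of MRPS11 and MRPS21 against Over Expression. Leaving out an array lowers the number of arrays, leaving out _x_at and _s_at sets the number of genes, and the cause of the other shifts was not tested. The replicate block ended no member's call in any comparison. No call changed direction under any alternative. In all called members the arrays of the groups compared did not overlap. That fixed the direction in refits of the same values, so it adds no support. Quantile normalization, pseudocount 16 and the stricter filter kept all 14 falls and both rises of Knock Down against wild type.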
